A study of Homo sapiens with 12 samples.

Results

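The genes described are the collagen chains and the enzymes that process them. They were chosen by symbol: every protein-coding gene named COL, a number, A and a number, together with the lysyl oxidases LOX and LOXL1 to LOXL4, the lysyl hydroxylases PLOD1 to PLOD3, the prolyl 4-hydroxylase subunits P4HA1 to P4HA3, the collagen chaperone SERPINH1 and the procollagen protease BMP1. Of 57 such genes, 46 were in the deposited table, and 39 of these passed a filter that asks for a value more than 1 above the floor of the table in at least 3 libraries. The 39 genes were 26 chains and 13 enzymes or chaperones, among 17767 genes that passed the same filter. RNA was sequenced from 12 libraries of HEYA8, a line of human ovarian carcinoma cells kept in DMEM with fetal bovine serum. Cells were kept for 48 h in vehicle (0 µM) or in colforsin daropate at 1, 5 or 10 µM, with 3 libraries in each group. Colforsin daropate is a water-soluble relative of forskolin, an activator of the adenylyl cyclases that make cyclic AMP. The sample titles carry a number, 6, 8 or 11, that recurs in every group, and its meaning is not given in the labels.

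Collagens are secreted proteins in which 3 alpha chains wind around each other into a rod. Types I and V form fibrils, type IV forms the sheet of basement membranes, and type VI forms beaded filaments around cells. In the endoplasmic reticulum, prolyl 4-hydroxylases stabilise the triple helix, lysyl hydroxylases prepare sites for sugars and cross-links, and SERPINH1 (HSP47) escorts the folded molecule. Outside the cell, BMP1 trims the C-terminal propeptide of fibrillar procollagens, and lysyl oxidases cross-link the assembled molecules. In ovarian carcinoma, collagen is a main component of the matrix that surrounds the tumour cells.

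The chains of type IV sit in the genome as head-to-head pairs. The RefSeq promoter windows (GRCh38.p14) put 126 bases between the starts of COL4A1 and COL4A2 on chromosome 13, 379 bases between those of COL4A6 and COL4A5 on chromosome X, and 418 bases between those of COL4A4 and COL4A3 on chromosome 2. The first sequence shown is the whole stretch between the starts of COL4A1 and COL4A2, which both rose. The others are the 250 bases before the start of COL6A2 and COL4A5, which rose, and of COL13A1, which fell. All are on the plus strand, at chr13:110307158-110307283, chr21:46097862-46098111, chrX:108439588-108439837 and chr10:69801656-69801905 in that order. Capitals mark CCAAT, the GC box GGGCGG, the TATA box TATAAA and the core letters TGACG of a cyclic AMP response element (CRE), read on both strands.
COL4A1 and COL4A2: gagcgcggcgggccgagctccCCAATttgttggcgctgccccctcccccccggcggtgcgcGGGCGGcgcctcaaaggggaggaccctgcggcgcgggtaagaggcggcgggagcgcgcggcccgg
COL6A2: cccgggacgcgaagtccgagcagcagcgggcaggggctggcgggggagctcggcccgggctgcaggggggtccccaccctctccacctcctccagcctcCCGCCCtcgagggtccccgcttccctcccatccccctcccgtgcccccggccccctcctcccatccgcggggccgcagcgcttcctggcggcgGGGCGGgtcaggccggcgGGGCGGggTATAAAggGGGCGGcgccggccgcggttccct
COL4A5: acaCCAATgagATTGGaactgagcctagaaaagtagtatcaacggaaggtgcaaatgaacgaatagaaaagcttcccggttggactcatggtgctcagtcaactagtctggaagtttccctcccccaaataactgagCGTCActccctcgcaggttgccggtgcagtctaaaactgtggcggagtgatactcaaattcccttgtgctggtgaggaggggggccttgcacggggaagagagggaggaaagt
COL13A1: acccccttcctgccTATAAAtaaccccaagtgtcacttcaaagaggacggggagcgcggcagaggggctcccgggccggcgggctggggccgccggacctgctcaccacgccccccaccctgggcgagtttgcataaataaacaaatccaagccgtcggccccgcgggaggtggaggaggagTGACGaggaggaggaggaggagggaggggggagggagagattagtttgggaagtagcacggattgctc
Of the 39 genes, 30 had a promoter window of 300 bases in RefSeq. Only the 250 bases before the start were searched, here and in the windows of all genes. None of the 30 held the full CRE, TGACGTCA, which contains the core letters and was found in 1.65% of 35116 windows of all genes. The core letters were in 4 of the 30 (COL4A5, COL7A1, PLOD1 and COL13A1), against 21.2% of all windows. No window of the 30 held the E box CACGTG, the AP-1 site TGACTCA or the SMAD palindrome GTCTAGAC, which were in 6.34%, 4.20% and 0.182% of all windows. The TATA box was in 5 of 30 (10.7% of all), CCAAT in 8 of 30 (32.0%) and the GC box in 17 of 30 (42.6%). CCAAT and the GC box were added to the search after the sequences had been seen. These are matches of letters in a window and do not show binding.

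The deposited values are variance-stabilised expression values on a log2 scale for abundant genes, with a floor of 4.86, and are called stabilised values here. Near the floor a difference on this scale understates the fold, so normalised read counts recovered from the values are given beside it. Sequencing depth, recovered the same way, lay between 24.0 (vehicle, number 6) and 48.6 (5 µM, number 8) megareads counted on genes. Libraries with the number 6 stood apart. In the vehicle group, number 6 differed from number 8 by more than 1 in 3.24% of genes and from number 11 in 3.67%, whereas numbers 8 and 11 differed that far in 0.0338%. Number 6 was the highest of the 3 libraries in all 4 groups for 19 of the 39 genes (48.7%), against 13.7% of all genes. It was the lowest for 2 of the 39, SERPINH1 and PLOD3 (5.13%), against 13.8% of all genes. Library values are therefore listed by label number, always in the order 6, 8 and 11. Of the ovarian carcinoma markers, PAX8 was at 12.5 to 13.6 and KRT8 at 13.1 to 14.5 in all libraries, WT1 was at 6.89 to 7.73, EPCAM and KRT19 were under the filter, and MUC16 and CDH1 were not analysed here. Both leukocyte markers in the table, PTPRC and CD68, were under the filter. The 3 endothelial markers had summed counts of 3868 to 4425 at 10 µM, against 1870 to 7909 in vehicle. Most of this sum was CDH5, at 1725 to 8722 counts over all libraries. PECAM1 was at 7.1 to 114.5 and VWF at 63.0 to 210.0. The 4 of 7 fibroblast markers in the table (PDGFRA, PDGFRB, FAP and ACTA2) had summed counts of 678 to 919 at 10 µM, against 1038 to 1504 in vehicle. Most of that sum was FAP and ACTA2, as PDGFRA and PDGFRB reached at most 31.3 and 51.3. The part of these markers in the results was not tested.

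At 10 µM, 14 of the 39 genes rose and 2 fell against vehicle, which is 41.0% of them, whereas 22.6% of all genes passed the test. By direction, 11.2% of all genes rose and 11.4% fell. COL1A1, counted among the 14, met the filter only with the help of treated libraries, where it was higher. A gene passed when its limma p, adjusted over all 17767 genes by Benjamini and Hochberg, was under 0.05. The median difference of the 39 genes was 0.47 on the stabilised scale, against 0.00 for all genes. At 5 µM, 9 rose and 3 fell (15.1% of all genes passed, 7.67% higher and 7.44% lower), with a median of 0.37. At 1 µM, COL4A1 rose and none fell (1.80% of all genes passed, 1.18% higher and 0.613% lower), with a median of 0.17. All 18 pairs of same-numbered libraries deviated together from their group means. Pairs of number 8 with number 11 did so too, with correlations of 0.199 to 0.570. The check therefore does not tell 8 from 11, and the pairing of those libraries rests on the labels alone. With the number as a block more genes passed. At 1 µM, 15 were higher and 2 lower (6.76% and 5.26% of all genes). The counts were 19 and 5 at 5 µM (15.3% of all genes in each direction), and 21 and 5 at 10 µM (18.7% and 19.7%). No call was lost with the block. In bulk RNA, a change in the share of cells that express a gene and a change in RNA per cell cannot be told apart.

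**Figure D1:**
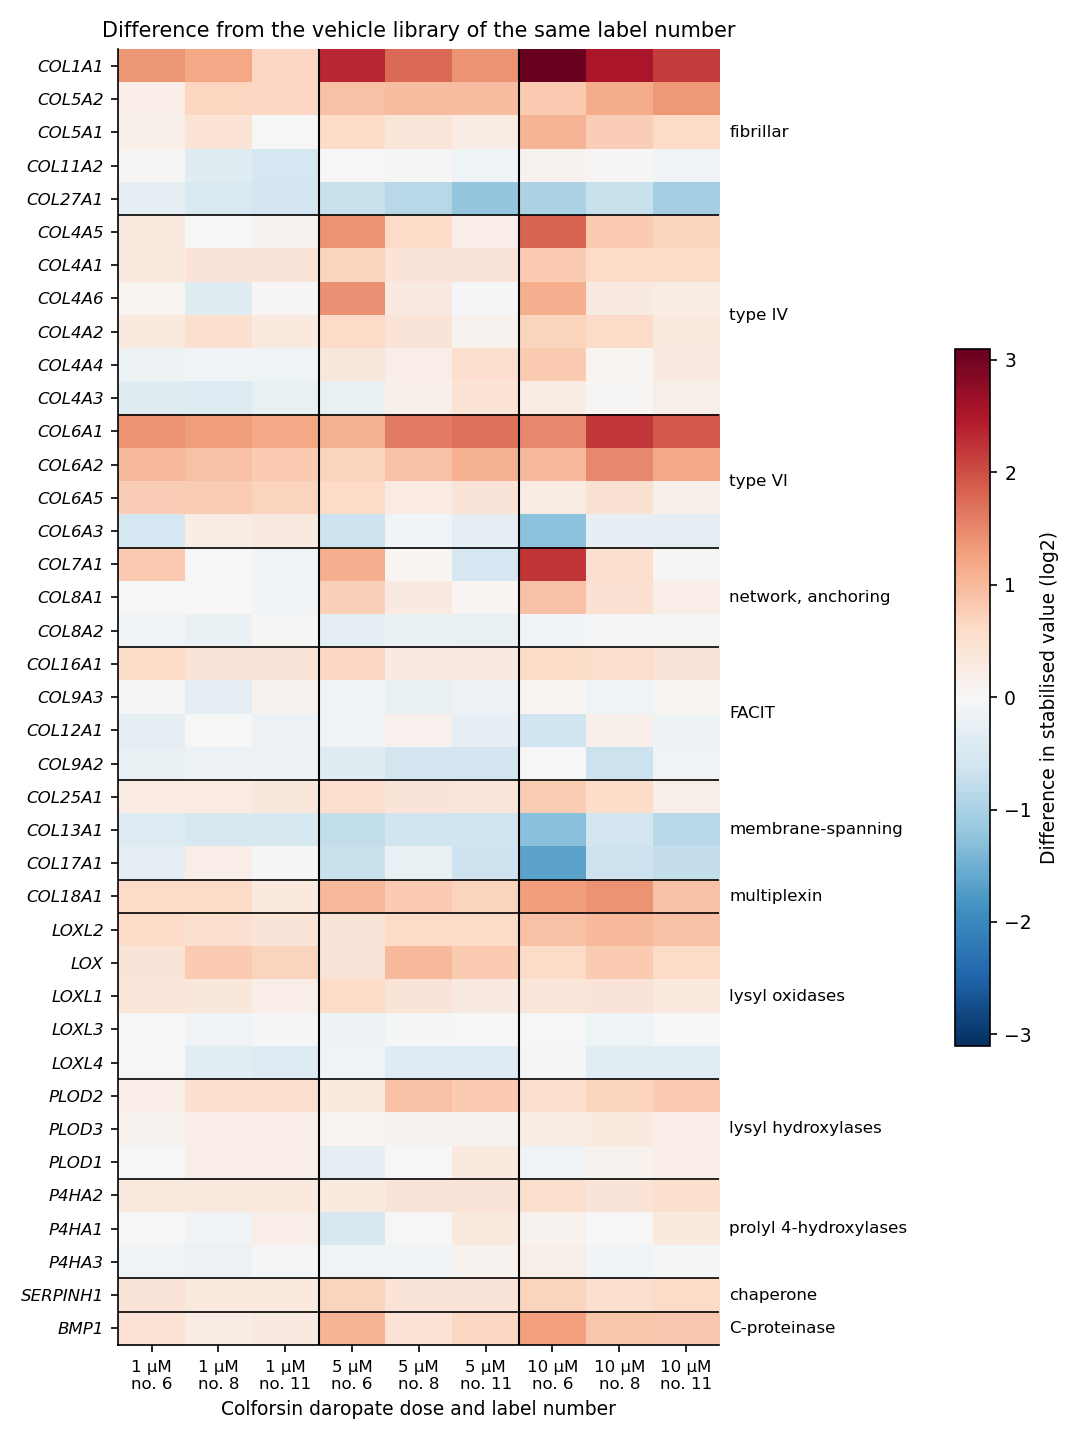
Difference in stabilised value (log2) between each treated library and the vehicle library of the same label number, for all 39 genes (down the page, by class) and the 9 treated libraries (across, by dose and number). COL1A1, COL6A1, COL6A2, COL18A1, LOXL2, P4HA2, SERPINH1 and BMP1 are among the genes red in all 9 columns and COL13A1 and COL27A1 among those blue in all 9, whereas COL7A1 is strongly red at 10 µM in number 6 only.

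At 10 µM, 25 of the 39 genes were higher in all 3 label numbers and 6 were lower in all 3, against 27.2% and 27.5% of all genes. The 10 µM and vehicle libraries did not overlap for 16 genes that were higher and 5 that were lower, and for 33.8% of all genes in either direction. By number, the median difference of the 39 genes was 0.50 for 6, 0.40 for 8 and 0.24 for 11. The counts depended on which number was left out. Without the number 6 libraries, 18 of the 39 genes rose and 4 fell at 10 µM, with a median of 0.31, against 16.2% and 17.2% of all genes. Without number 8, 1 rose and 1 fell, with a median of 0.49, against 1.95% and 1.42% of all genes. Without number 11, 6 rose and none fell, with a median of 0.45, against 2.63% and 2.78% of all genes.

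Among the fibrillar chains, COL1A1 and COL5A2 rose and COL27A1 fell at 10 µM. COL1A1, the alpha-1 chain of type I collagen (ENSG00000108821, chromosome 17, 50183289 to 50201632, minus strand, GENCODE 29 on GRCh38), had stabilised values of 10.4, 8.37 and 8.40 at 10 µM, against 7.31, 5.83 and 6.24 in vehicle. All 3 treated libraries were above all 3 vehicle libraries, and number 6 was the highest in both groups. The difference was 2.60 ± 0.71 (SE, adjusted p = 0.0218), the largest of the 39. Vehicle library 8 was under the filter for COL1A1, so the gene entered only with the help of treated libraries, where it was higher. In recovered counts it averaged 617 ± 586 at 10 µM, against 49.3 ± 49.5 in vehicle (SD, n = 3 each), a 12.5-fold ratio of means. The call was lost without vehicle library 8 (adjusted p = 0.0826), vehicle library 11 (adjusted p = 0.0651) or the 10 µM library 6 (adjusted p = 0.0871). It held with the number as a block (adjusted p = 2.47e-07), and number by number the difference was 3.09, 2.54 and 2.16. The partner chain COL1A2 and the type III chain COL3A1 were not analysed here.

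COL5A2, a chain of the type V collagen that helps to start and to size type I fibrils (ENSG00000204262, chromosome 2, 189031896 to 189225312, minus strand), was at 11.3, 10.8 and 11 at 10 µM, against 10.5, 9.64 and 9.65 in vehicle. The groups did not overlap, and the difference was 1.10 ± 0.26 (adjusted p = 0.0111). Its partner COL5A1 was a low gene, at 7.84, 6.96 and 6.77 at 10 µM, against 6.78, 6.20 and 6.15 in vehicle. The lowest treated library lay just under the highest vehicle library. Its difference of 0.81 ± 0.33 did not pass (adjusted p = 0.103) and passed with the block (adjusted p = 0.000235). COL27A1, a fibrillar chain best known from cartilage (ENSG00000196739, chromosome 9, 114155560 to 114312511, plus strand), was at 8.57, 8.50 and 8.13 at 10 µM, against 9.56, 9.20 and 9.17 in vehicle. It fell by 0.91 ± 0.24 (adjusted p = 0.0171) without overlap, and the call was lost without the 10 µM library 11 (adjusted p = 0.0658). COL11A2, a minor fibrillar chain, differed by 0.02 ± 0.15 (adjusted p = 0.958).

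**Figure D2:**
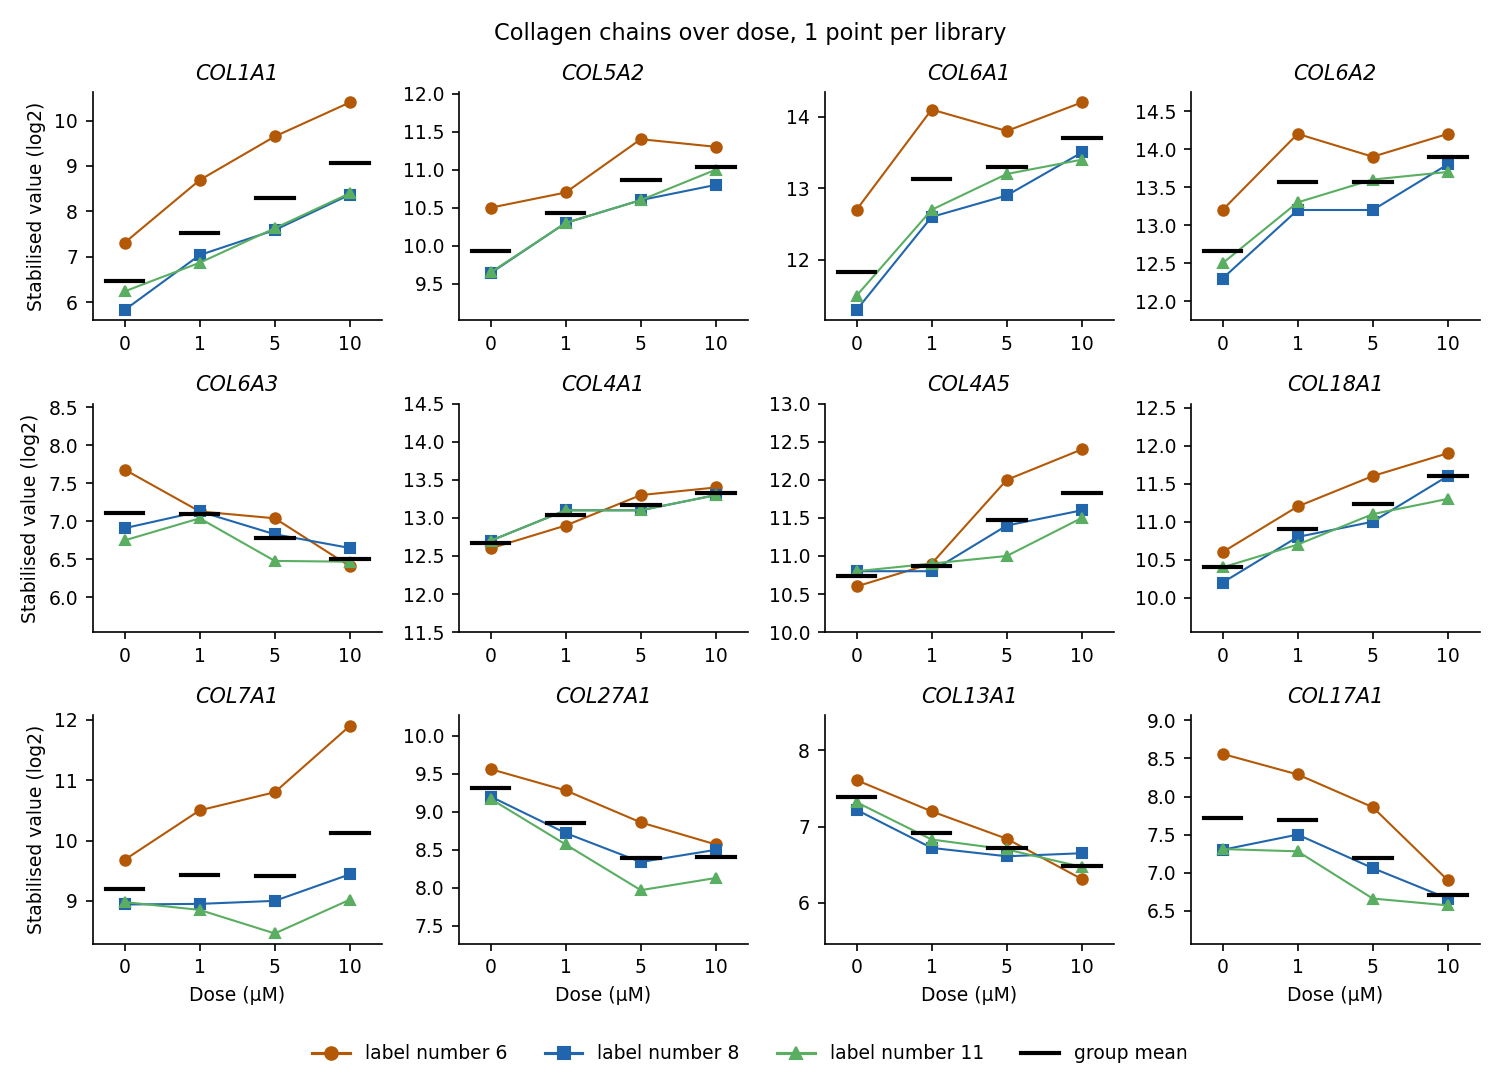
Stabilised value (log2, vertical axis) against dose in µM (0 is vehicle, horizontal axis, evenly spaced ranks) for 12 chains, with 1 point per library, lines joining libraries of the same label number and a black bar at each group mean. In COL1A1, COL6A1 and COL7A1 the number 6 line runs above the others, while the COL4A1 lines lie together between 12.6 and 13.4.

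Among the type IV chains, COL4A1, COL4A2 and COL4A5 rose and the other 3 did not pass. COL4A1, the main basement membrane chain with COL4A2 (ENSG00000187498, chromosome 13, 110148963 to 110307233, minus strand), was at 13.4, 13.3 and 13.3 at 10 µM, against 12.6, 12.7 and 12.7 in vehicle. The libraries of a group lay within 1 rounding step of each other, and the groups did not overlap. The difference of 0.67 ± 0.08 had the smallest adjusted p of the 39 genes (0.000256), at a 1.59-fold ratio of mean recovered counts. COL4A1 was also the only one of the 39 to pass at 1 µM (0.37 ± 0.08, adjusted p = 0.0487), but that call was lost in 9 of 12 fits that left out 1 library, with p up to 0.190. COL4A2 (ENSG00000134871, chromosome 13, 110305812 to 110513209, plus strand), which starts beside it on the other strand, was at 13.2, 13.1 and 12.9 at 10 µM, against 12.5, 12.5 and 12.6 in vehicle. It differed by 0.53 ± 0.11 (adjusted p = 0.00465), again without overlap.

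COL4A5, the chain of the other widespread basement membrane network (ENSG00000188153, chromosome X, 108439844 to 108697545, plus strand), was at 12.4, 11.6 and 11.5 at 10 µM, against 10.6, 10.8 and 10.8 in vehicle. All treated libraries were higher, and number 6 had the largest step, 1.80, against 0.80 and 0.70 in the other two. The difference was 1.10 ± 0.25 (adjusted p = 0.00851). COL4A6, head to head with COL4A5, was at 7.73, 7.28 and 7.15 at 10 µM, against 6.61, 7.01 and 6.91 in vehicle. These groups did not overlap either, but the difference of 0.54 ± 0.25 did not pass (adjusted p = 0.151, and 0.0822 with the block). COL4A3 and COL4A4, the chains known from kidney and lung basement membranes, were low and did not pass, at 0.15 ± 0.17 (adjusted p = 0.568) and 0.38 ± 0.19 (adjusted p = 0.184).

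Type VI showed rises in the alpha-1 and alpha-2 chains and not in the alpha-3 chain. COL6A1 (ENSG00000142156, chromosome 21, 45981737 to 46005050, plus strand) was at 14.2, 13.5 and 13.4 at 10 µM, against 12.7, 11.3 and 11.5 in vehicle. COL6A2 (ENSG00000142173, chromosome 21, 46098097 to 46132849, plus strand) was at 14.2, 13.8 and 13.7 at 10 µM, against 13.2, 12.3 and 12.5 in vehicle. In both genes every treated library was above every vehicle library. COL6A1 rose by 1.87 ± 0.44 (adjusted p = 0.0108, 3.45-fold in mean recovered counts) and COL6A2 rose by 1.23 ± 0.29 (adjusted p = 0.0109, 2.30-fold). COL6A3 (ENSG00000163359, chromosome 2, 237324003 to 237414375, minus strand), the long chain that joins them in the classical heterotrimer, was at 6.41, 6.65 and 6.47 at 10 µM, against 7.68, 6.91 and 6.75 in vehicle. Its groups did not overlap, and the difference of -0.60 ± 0.22 did not pass (adjusted p = 0.0657) but passed as lower with the block (adjusted p = 0.0154). The step was -1.27 in number 6, and -0.26 and -0.28 in numbers 8 and 11. COL6A5, an alternative to the alpha-3 chain, was near the floor, with mean counts of 16.8 ± 10.8 at 10 µM and 9.09 ± 8.29 in vehicle, and did not pass (0.29 ± 0.28, adjusted p = 0.502).

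The type VI chains were also set against each other within each library. Per kilobase of exon, recovered counts of COL6A1 over COL6A2 were 1.01, 0.818 and 0.818 at 10 µM, against 0.711, 0.498 and 0.499 in vehicle. The ratio was higher in every number, and the group means over vehicle, 1, 5 and 10 µM were 0.569, 0.755, 0.840 and 0.881. COL6A3 over COL6A1 averaged 0.0064, 0.0028, 0.0017 and 0.0009 over the same groups. COL4A1 over COL4A2 averaged 1.58 ± 0.13 at 10 µM and 1.44 ± 0.06 in vehicle (SD, n = 3 each). Values of 10 and above were deposited in steps of 0.1, so a count from them carries a rounding error of up to 3.53%. No test was run on these ratios.

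**Figure D3:**
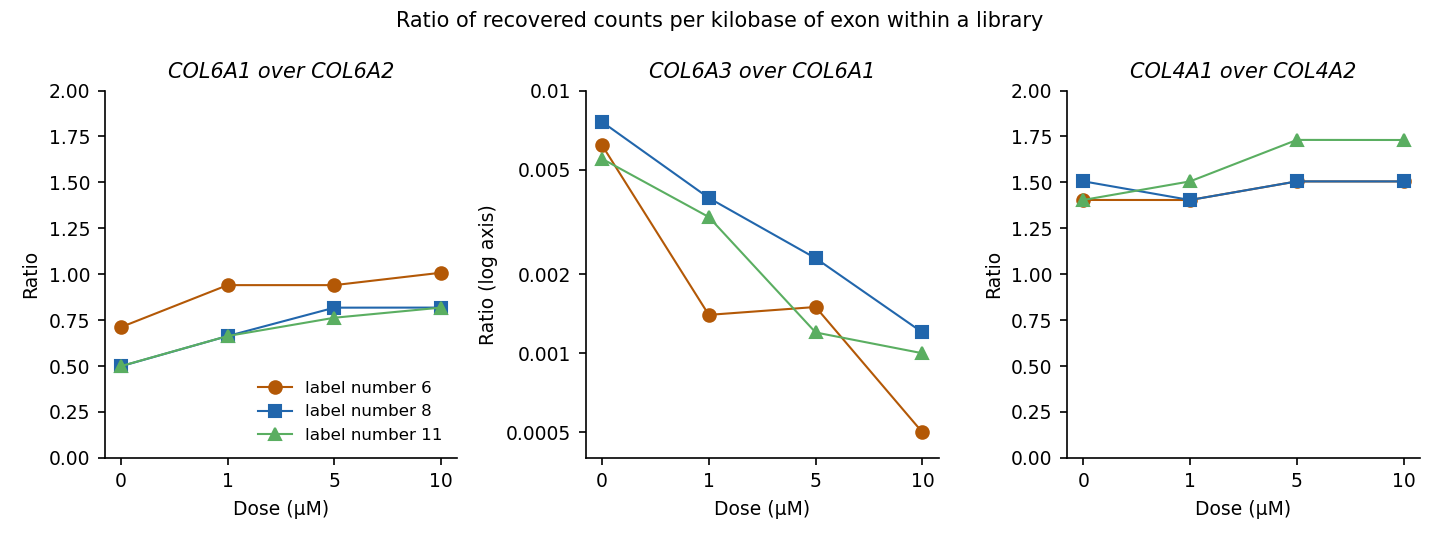
Ratio of recovered normalised counts per kilobase of exon (vertical axes, the middle one logarithmic) between partner chains of the same library, against dose in µM (0 is vehicle, evenly spaced ranks), with 1 line per label number. COL6A1 over COL6A2 and COL6A3 over COL6A1 move away from vehicle in every number, whereas COL4A1 over COL4A2 stays between 1.40 and 1.73.

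COL18A1, the source of endostatin and a basement membrane component (ENSG00000182871, chromosome 21, 45405137 to 45513720, plus strand), was at 11.9, 11.6 and 11.3 at 10 µM, against 10.6, 10.2 and 10.4 in vehicle. The groups were clear of each other, and the difference was 1.20 ± 0.19 (adjusted p = 0.00132). COL6A1, COL6A2 and COL18A1, which all rose, lie in the same stretch of chromosome 21, between positions 45405137 and 46132849. Of the exon bases of COL18A1, 16.4% are overlapped on the opposite strand by SLC19A1, a folate transporter that also rose (0.87 ± 0.15, adjusted p = 0.00215). The strand setting of the counting is not given in the sources used here, so reads in the overlap cannot be told apart.

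Of the chains that decorate fibrils or span the membrane, COL16A1 rose and COL13A1 fell. COL16A1, a fibril-associated chain (ENSG00000084636, chromosome 1, 31652247 to 31704319, minus strand), was at 8.77, 8.78 and 8.47 at 10 µM, against 8.21, 8.23 and 8.08 in vehicle. The groups did not overlap. The difference of 0.50 ± 0.14 passed (adjusted p = 0.0242), but 4 of 12 fits without 1 library lost the call: p was 0.0522 without vehicle library 8, 0.0829 without vehicle library 11, 0.0800 without the 10 µM library 6 and 0.0821 without the 10 µM library 8. COL13A1, a membrane-spanning chain of adhesion sites (ENSG00000197467, chromosome 10, 69801867 to 69964275, plus strand), was at 6.31, 6.65 and 6.47 at 10 µM, against 7.61, 7.22 and 7.32 in vehicle. Every treated library was below every vehicle library, at mean counts of 40.8 ± 9.45 at 10 µM and 115 ± 23.5 in vehicle. It fell by 0.91 ± 0.15 (adjusted p = 0.00169).

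COL17A1, the hemidesmosome chain that spans the membrane of epithelial cells, was also below vehicle in every number, at 6.90, 6.66 and 6.57 at 10 µM, against 8.56, 7.30 and 7.31 in vehicle. Its difference of -1.01 ± 0.38 did not pass (adjusted p = 0.0797) and passed with the block (adjusted p = 0.00052). COL7A1, the anchoring fibril chain, was at 11.9, 9.44 and 9.02 at 10 µM, against 9.68, 8.94 and 8.98 in vehicle. By number, the step was 2.22 for 6, 0.50 for 8 and 0.04 for 11. COL7A1 did not pass at 0.92 ± 0.76 (adjusted p = 0.425), and it passed with the block (adjusted p = 0.0253). The network chain COL8A1 and the membrane-spanning COL25A1 were low, at mean counts of 43.7 and 75.4 at 10 µM, against 16.7 and 38.1 in vehicle. With the block both passed as higher (adjusted p = 0.0131 and 0.00617), and without it neither did (adjusted p = 0.223 and 0.192). COL8A1 was under the filter in vehicle libraries 8 and 11, so it entered only with the help of treated libraries. The remaining chains, COL8A2, COL9A2, COL9A3 and COL12A1, differed by -0.26 to 0.01 at 10 µM and did not pass there, with or without the block.

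Per kilobase of exon, type VI and type IV chains made up most of the collagen chain counts. The length takes in all annotated exons of a gene (19293 bases for COL4A2, 5343 for COL6A1). Levels and shares of different chains therefore depend on the annotation. The summed counts per kilobase of the 26 chains over vehicle, 1, 5 and 10 µM were 3394 ± 969, 6022 ± 2299, 6299 ± 1637 and 7893 ± 1938 (SD, n = 3 each). Number 6 was the highest in every group, with 10114 at 10 µM against 4504 in vehicle. COL6A2 took 36.5% of the sum at 10 µM, against 36.2% in vehicle, and COL6A1 took 32.1% against 20.8%. COL4A1 took 9.10% at 10 µM, against 13.6% in vehicle, although its own level rose. COL1A1 stood at 62.8 counts per kilobase at 10 µM, against 5.02 in vehicle, well under the type IV chain COL4A1 with 697 against 437.

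Among the enzymes of the endoplasmic reticulum, PLOD2, P4HA2 and the chaperone SERPINH1 rose, whereas PLOD1, P4HA1 and P4HA3 did not pass at any dose, with or without the block. PLOD2, which hydroxylates lysines of the telopeptides used for cross-links (ENSG00000152952, chromosome 3, 146069440 to 146163653, minus strand), was at 15.9, 15.5 and 15.7 at 10 µM, against 15.4, 14.8 and 14.9 in vehicle. It was the most abundant of the 39 genes per kilobase, with 6999 counts at 10 µM and 4454 in vehicle. The groups did not overlap, and the difference was 0.67 ± 0.16 (adjusted p = 0.00997), which did not pass when only the 10 µM and vehicle libraries were fitted (adjusted p = 0.0564). PLOD3, which also transfers sugars to hydroxylysine, was at 10, 10.3 and 10.2 at 10 µM, against 9.76, 10 and 10 in vehicle. Treated and vehicle libraries met at 10, and the difference of 0.25 ± 0.13 did not pass (adjusted p = 0.186, with the block 0.00676). PLOD1, the lysyl hydroxylase of the helix, was at 13.5, 13.2 and 13.3 at 10 µM, against 13.6, 13.1 and 13.1 in vehicle, and differed by 0.07 ± 0.15 (adjusted p = 0.791).

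P4HA2, a catalytic subunit of prolyl 4-hydroxylase (ENSG00000072682, chromosome 5, 132191838 to 132295315, minus strand), was at 12, 11.9 and 12.1 at 10 µM, against 11.5, 11.5 and 11.6 in vehicle. It rose by 0.47 ± 0.08 (adjusted p = 0.00138) in non-overlapping groups. P4HA2-AS1, on the opposite strand over 6.45% of its exon bases, differed by 0.40 (adjusted p = 0.0325). P4HA1, the other main catalytic subunit, was at 13.3, 12.8 and 13.1 at 10 µM, against 13.2, 12.8 and 12.8 in vehicle. Its difference was 0.13 ± 0.17 (adjusted p = 0.620), with the groups overlapping. P4HA3, the least abundant subunit, was at 7.71, 7.40 and 7.54 at 10 µM, against 7.54, 7.48 and 7.59 in vehicle (0.01 ± 0.12, adjusted p = 0.957). SERPINH1 (ENSG00000149257, chromosome 11, 75562056 to 75572783, plus strand) was at 12.8, 13.1 and 13.1 at 10 µM, against 12.1, 12.6 and 12.5 in vehicle. All treated libraries were higher, and number 6 was the lowest in both groups. SERPINH1 rose by 0.60 ± 0.14 (adjusted p = 0.0112).

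Of the enzymes that act outside the cell, BMP1 and LOXL2 rose. BMP1 (ENSG00000168487, chromosome 8, 22164736 to 22212326, plus strand) was at 10.1, 9.71 and 9.57 at 10 µM, against 8.82, 8.84 and 8.74 in vehicle. The vehicle libraries lay within 0.10 of each other and below every treated library, and the difference was 0.99 ± 0.16 (adjusted p = 0.00136). LOXL2, a lysyl oxidase that cross-links type IV collagen (ENSG00000134013, chromosome 8, 23297189 to 23425328, minus strand), was at 13.6, 13.2 and 13.3 at 10 µM, against 12.7, 12.2 and 12.4 in vehicle. It rose by 0.93 ± 0.17 (adjusted p = 0.00283) without overlap. LOX, the founding member of the family, was at 11.6, 10.8 and 10.9 at 10 µM, against 11, 10 and 10.3 in vehicle. The treated libraries of numbers 8 and 11 were below vehicle library 6, and the difference of 0.67 ± 0.27 did not pass (adjusted p = 0.0973). It passed with the block (adjusted p = 0.000183) and without vehicle library 6 (adjusted p = 0.0151).

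The other lysyl oxidases moved less. LOXL1, which acts on elastin, was at 8.33, 8.11 and 8.10 at 10 µM, against 7.95, 7.72 and 7.80 in vehicle. These groups did not overlap, and the difference of 0.36 ± 0.14 did not pass (adjusted p = 0.0892, with the block 0.00578). LOXL4 was at 9.45, 9.44 and 9.43 at 10 µM, against 9.51, 9.78 and 9.77 in vehicle. All treated libraries were lower. LOXL4 fell at 5 µM (-0.30 ± 0.08, adjusted p = 0.0340), and at 10 µM the difference of -0.25 ± 0.08 did not pass (adjusted p = 0.0567, with the block 0.0327, without vehicle library 6 0.00813). LOXL3 was at 9.59, 9.54 and 9.64 at 10 µM, against 9.59, 9.68 and 9.66 in vehicle, a difference of -0.05 ± 0.08 (adjusted p = 0.674). LOXL3 shares 14.3% of its exon bases with HTRA2.

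**Figure D4:**
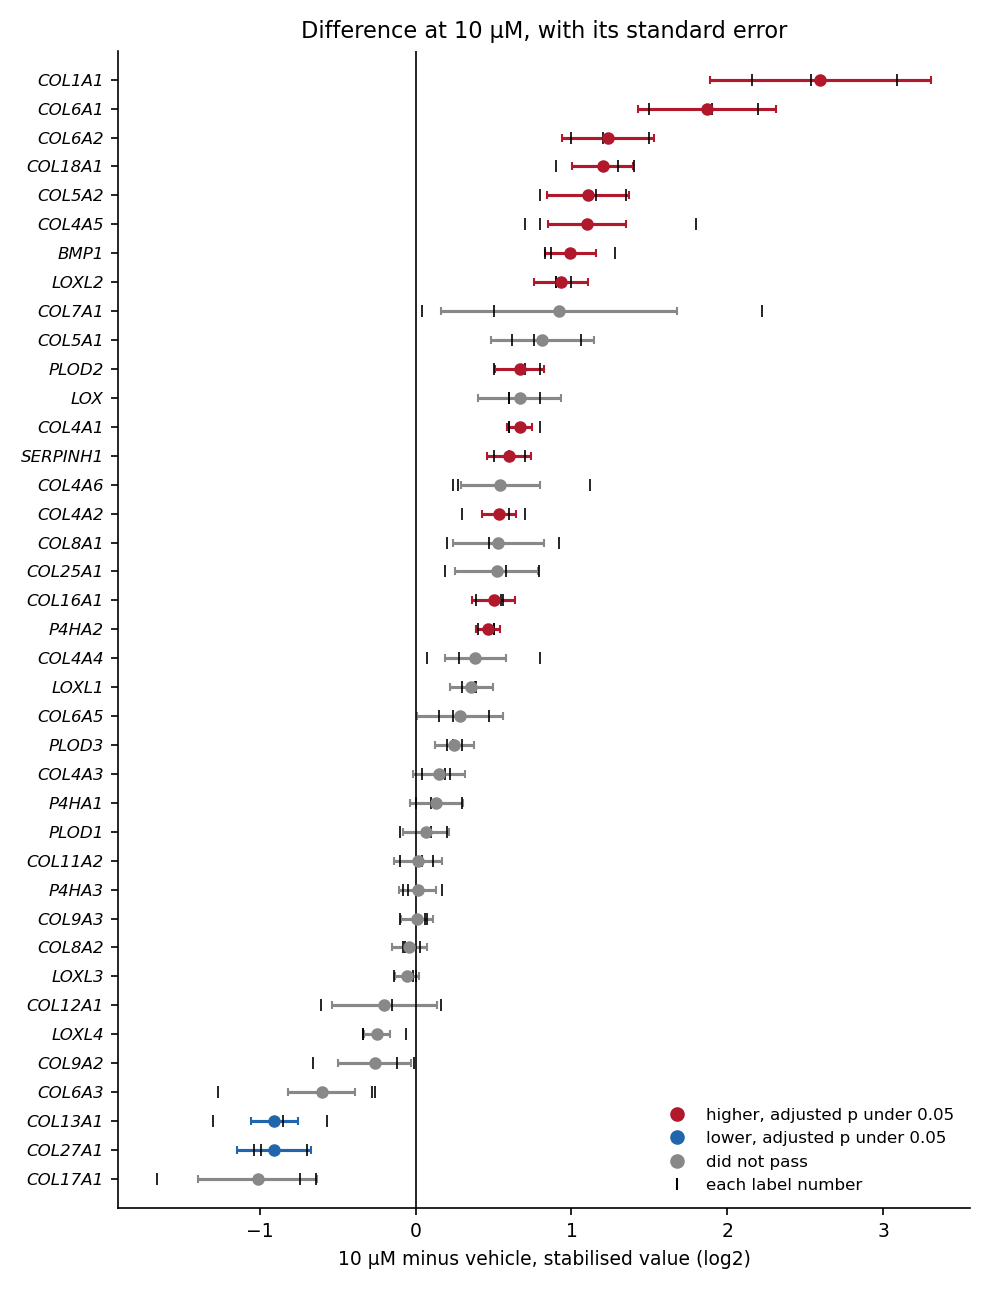
Difference between 10 µM and vehicle in stabilised value (log2, horizontal axis) for the 39 genes, ordered from highest to lowest; dots are the limma estimate, bars its standard error, and small vertical marks the difference within each label number. COL1A1 is at the top with 2.60 and COL17A1 at the bottom with -1.01, and the marks of COL7A1, COL17A1, COL6A3 and COL4A5 spread furthest, with number 6 apart from numbers 8 and 11.

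At the lower doses fewer genes passed. At 5 µM the genes that rose were COL6A1, COL18A1, COL5A2, BMP1, COL4A1, PLOD2, SERPINH1, COL4A2 and P4HA2, and those that fell were LOXL4, COL13A1 and COL27A1. The calls of BMP1, COL4A1 and P4HA2 held in all 12 fits without 1 library, and the other 9 were lost in at least 1, with p up to 0.160. All 12 calls at 5 µM were lost without number 8, and likewise without number 11. At 10 µM, 13 of the 16 calls held in all 12 fits without 1 library, and COL1A1, COL16A1 and COL27A1 did not. Without all libraries of number 8, 14 of the 16 were lost, and without number 11, 10 were lost. COL4A1 alone passed in both of these fits. The group mean was higher at each step from vehicle to 10 µM in 12 of the 39 genes and lower at each step in 3, COL13A1, COL6A3 and COL17A1, against 13.7% and 15.0% of all genes. COL1A1, for example, averaged 6.46, 7.53, 8.29 and 9.06 over vehicle, 1, 5 and 10 µM (SD 0.76, 1.01, 1.18 and 1.16). In a linear fit over the dose ranks, 14 of the 39 genes rose and 4 (COL6A3, COL13A1, COL27A1 and COL17A1) fell, which is 18 of 39 (26.5% of all genes passed in either direction). With the block, 23 rose and 4 fell (18.7% and 19.9%). A difference among the 4 groups in any direction passed in 13 of the 39 (14.8% of all genes), and in 28 with the block (33.7%). COL6A2 averaged 12.67, 13.57, 13.57 and 13.90 over the 4 doses.

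Between doses, few differences passed. Set against 1 µM, the 10 µM group was higher in COL4A5 (0.97, adjusted p = 0.0495) and BMP1 (0.67, adjusted p = 0.0398) and lower in none (4.71% of all genes passed, 2.17% higher and 2.54% lower). With the block, 13 were higher and 5 lower (9.46% and 11.4% of all genes). At 5 µM against 1 µM, none of the 39 passed in limma (all genes 0.310%). With the block, 2 were higher and 1 lower (2.51% and 2.68%). None passed in limma at 10 µM against 5 µM, with or without the block (all genes 0.00563% and 0.00%). The comparisons of 1, 5 and 10 µM with vehicle share the 3 vehicle libraries.

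A wider list of collagen-related genes was read beside the 39 genes. Of its 66 genes that passed the filter, 28 rose and 5 fell at 10 µM, where 22.6% of all genes passed in either direction. With the block, 38 rose and 8 fell, against 18.7% and 19.7% of all genes. Of 13 further genes for folding and modification, 9 rose and 1 fell. P3H4 and P3H1, of the complexes that modify prolines and lysines, were higher by 1.02 ± 0.15 (adjusted p = 0.000823) and 0.87 ± 0.11 (adjusted p = 0.000306). FKBP10, a foldase of procollagen, was higher by 0.80 ± 0.17 (adjusted p = 0.00634). CRTAP, which works in the same complex as P3H1, fell by 0.73 ± 0.09 (adjusted p = 0.000256). Of 12 genes for export from the endoplasmic reticulum, 7 rose and none fell, among them the coat subunit SEC24D (0.70 ± 0.13, adjusted p = 0.00276), the cargo receptor MIA2 (0.59 ± 0.17, adjusted p = 0.0277) and SURF4 (0.50 ± 0.09, adjusted p = 0.00251).

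Of 8 genes for propeptide removal and fibril assembly, 3 rose and 1 fell, where 11.2% and 11.4% of all genes did. FN1, the fibronectin on which collagen assembles, was at a mean of 20.7 at 10 µM, against 18.8 in vehicle (1.93 ± 0.30, adjusted p = 0.000985). TGFBI and SPARC, which bind collagen, were higher by 1.57 ± 0.41 (adjusted p = 0.0181) and 1.23 ± 0.33 (adjusted p = 0.0186), and PCOLCE, the enhancer of BMP1, fell by 0.54 ± 0.13 (adjusted p = 0.0118). Of 10 genes for degradation, 3 rose and 3 fell, against the same 11.2% and 11.4% of all genes. MMP2, counted among the 3 that rose, was under the filter in every vehicle library and entered only through treated libraries. The collagenase MMP1 averaged 31.4 counts at 10 µM and 654 in vehicle (-3.07 ± 0.30, adjusted p = 6.16e-05). The gelatinase MMP9 differed by -1.40 ± 0.40 (adjusted p = 0.0263), and the collagen uptake receptor MRC2 was higher by 1.13 ± 0.18 (adjusted p = 0.00120). TIMP3, an inhibitor of matrix proteases, fell by 1.13 ± 0.21 (adjusted p = 0.00249).

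Of 8 collagen receptors, 3 rose and none fell, where 11.2% and 11.4% of all genes did: CD44 (0.80 ± 0.24, adjusted p = 0.0318), and the alpha subunits ITGA1 (0.67 ± 0.16, adjusted p = 0.0124) and ITGA2 (0.57 ± 0.14, adjusted p = 0.0134) of collagen-binding integrins. ITGA11, the alpha subunit of a fibrillar collagen receptor, differed by 2.06 ± 0.69 and did not pass (adjusted p = 0.0515), and it passed with the block (adjusted p = 3.1e-07). With the block, 7 of the 8 receptors were higher, against 18.7% of all genes. Of 15 regulators, 3 passed, a share near the 22.6% of all genes. SMAD3 rose by 1.57 ± 0.34 (adjusted p = 0.00686) and SMAD2 by 0.87 ± 0.08 (adjusted p = 4.81e-05). The other, TGFB2, was at 7.34, 6.68 and 6.57 at 10 µM, against 5.53, 5.30 and 5.5 in vehicle. All 3 vehicle libraries were under the filter, so TGFB2 entered only through treated libraries, where it had to be higher. None of the regulators fell without the block, and TGFB1 was lower with it (-0.27, adjusted p = 0.00749, without the block 0.0944).

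Of the 7 genes under the filter, COL19A1 exceeded it in 2 libraries and COL10A1 in 1, and COL6A6, COL14A1, COL15A1, COL20A1 and COL24A1 in none, with values of 4.86 to 6.43 in all. Just inside the filter were COL6A5, which exceeded it in 7 libraries, COL8A1 in 8, COL4A3 and COL9A2 in 9, COL11A2 in 10 and COL1A1 in 11. For COL1A1, 2 of its 3 vehicle values were past the filter, so it reached the 3 libraries asked for only with treated libraries, where it was higher. A further 11 chains of the family were not analysed here.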

How the data were processed

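The authors deposited 1 table of variance-stabilised values, on a log2 scale for abundant genes, with 21211 entries and 12 libraries. Per the submitters' processing notes, DESeq2 and the build GRCh38 are listed, with no role given. Aligner, counter, annotation release and strandedness of counting are not given in the sources used here. Of the entries, 4 name no gene and were left out. Libraries were ribosomally depleted total RNA, per the labels' protocols.

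The 39 genes, all lists and the naming rule were chosen with earlier results of these data known. Values in every library are given for genes that passed at 10 µM, the chains of types I and V, the main chains of types IV and VI and the enzymes. Of each related list, up to 3 that passed are named, by size. TIMP3 tied for the third place. COL4A6, COL7A1, COL17A1, CRTAP, PCOLCE, MMP2, ITGA11 and TGFB1 were named after their values were seen.

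limma 3.58.1 (R 4.3.3) was fitted to the stabilised values of 12 libraries in 4 groups with a variance trend, two-sided, over 17767 genes. The script recovered genes changed by a known amount when tested on simulated data. Those values were drawn independently for each library, without deviations shared by a label number. The simulation therefore does not show how the fit without the block behaves where such deviations are present. A variance-stabilising curve with dispersion 0.008584 was fitted to 437 low values, with a largest residual of 0.00511. Of 13518 values not used for the fit, 97.5% matched whole reads within 0.005, against 63.9% with depths given to the wrong libraries. Counts are divided by the recovered size factor. Exon lengths are from GENCODE 29 (GRCh38).

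Libraries of 1 group are biological replicates in the wording of the series' design, and whether they are separate cultures is not stated. The p-values therefore set a difference against the spread between these libraries. Without the block, that spread includes the differences between label numbers. Label numbers were checked as pairs: deviations from the group means correlated at 0.316 to 0.777 over all 18 pairs of same-numbered libraries, and at -0.711 to 0.570 over 36 others. Of these others, pairs of number 8 with number 11 were at 0.199 to 0.570, so the check does not tell 8 from 11. The block on the number was an alternative, beside other filters, scalings, weights and leave-outs.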

Additional observations from a re-analysis of the deposited data

Results flagged for a closer look

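COL12A1, a fibril-associated chain, did not move the same way in the 3 label numbers. Against the vehicle library of its own number, it was lower at 1, 5 and 10 µM in number 6 (-0.31, -0.14 and -0.61 on the stabilised scale) and in number 11 (-0.18, -0.26 and -0.15). In number 8 it was higher at all 3 doses (0.01, 0.14 and 0.16). What drew attention is that every library of one number lay on the other side of vehicle from the rest. The difference between numbers was not tested, and the first of the number 8 values equals 1 rounding step.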

How the results depend on the processing

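None of the 39 genes changed sign at a dose where either value passed. Among differences that did not pass, 8, 7 and 8 genes at 1, 5 and 10 µM took the other sign under at least 1 setting, all within 0.26 of 0 with all libraries. With the replicate block on the label number, calls rose to 1201, 2712 and 3326 genes higher and 934, 2724 and 3498 lower at 1, 5 and 10 µM, beside 210, 1362 and 1982 higher and 109, 1322 and 2033 lower. For the 39 collagen genes the block gave 15, 19 and 21 higher and 2, 5 and 5 lower, and for the related list 8 lower. Array weights gave 2675, 3829 and 3633 genes higher and 2451, 3825 and 3761 lower, with 16 and 17 collagen genes higher at 1 and 5 µM and 5, 6 and 5 lower at 1, 5 and 10 µM. Fitting only the 2 groups compared gave 29, 840 and 1276 higher and 19, 761 and 1277 lower, with 0 and 4 collagen genes higher at 1 and 5 µM and 1 lower at 5 µM. The single call at 1 µM, COL4A1, became 0 with no filter, a median shift or no variance trend, and with quantile normalisation COL4A1 was lost (adjusted p = 0.0922) while P4HA2 passed (adjusted p = 0.0393).

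Leaving out 1 library or 1 number gave 2 to 1200 genes higher and 0 to 973 lower at 1 µM, 81 to 2485 and 56 to 2454 at 5 µM, and 347 to 2885 and 252 to 3050 at 10 µM. For the collagen genes the ranges were 0 to 12 higher and 0 to 3 lower at 1 µM, 0 to 14 and 0 to 3 at 5 µM, and 1 to 18 and 0 to 4 at 10 µM, and for the related list 3 to 36 and 2 to 7. Every one of these lowest counts was reached without number 8 or 11. Some were also reached without 1 library, such as 0 collagen genes higher at 1 µM and 0 lower at 5 µM. Without number 6 and with the replicate block, 1419, 2656 and 3049 genes were higher and 1155, 2626 and 3236 lower at 1, 5 and 10 µM, with 13, 14 and 18 collagen genes higher, 4, 4 and 4 lower, and 9 of the related list lower at 10 µM. The cause of these shifts was not tested. Rounding to 0.1 limits differences of abundant chains, and low counts limit COL6A5, COL8A1 and COL4A3.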

Other observations

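Over the 12 libraries, the genes whose values followed COL4A1 most closely by Pearson correlation were USP11 (0.977), PAPPA (0.967), TANC1 (0.964), B3GNT9 (0.962) and SPOCD1 (0.960). By rank correlation, only PAPPA was again among the first 5 (0.975). These libraries share 4 doses and 3 label numbers, so the values describe a like pattern and nothing more.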
